A study of Caenorhabditis elegans with 8 samples.

Results

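Fed ain-1 animals were compared with fed wild-type animals across all genes, using the 2 fed arrays of these strains among the 8 arrays of the series. Every probe set that was not a control was kept, which gave 22548 of the 22625 on the array, and genes were read from the probe sets that the platform annotation ties to 1 symbol, 17118 genes in all. The series measured total RNA of whole adult worms (Caenorhabditis elegans), of 4 strains on food and off it, with Affymetrix C. elegans arrays, and its title asks what the microRNA machinery does in fasting-induced expression and longevity. The wild type is N2, and the mutants are ain-1(tm3681), drsh-1(ok369), a mutant of the microRNA-processing enzyme Drosha, and daf-16(mu86), a mutant of the FOXO factor of insulin signalling. All strains were kept at 20 °C on Escherichia coli OP50 and then on plates with FUDR, a drug that blocks the production of progeny. On day 2 they were moved to FUDR plates that held UV-killed OP50 (fed) or no bacteria (fasting), and adults of day 4 were collected. Each group is 1 array, so no value has a replicate error and the pair itself allows no test.

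AIN-1 is a GW182-family protein, a scaffold that binds the microRNA-loaded Argonautes ALG-1 and ALG-2 and brings deadenylases and the decapping machinery to the bound messenger RNA. Its relative AIN-2 has an overlapping role. In the worm the microRNA pathway is best known for timing larval development, where let-7 and lin-4 lower the messages of lin-41, hbl-1, lin-14 and lin-28.

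A difference is given as fed ain-1 minus fed wild type on a log2 scale of intensity plus 16, so that 1 is a 2-fold difference, and it understates the difference of dim genes. The 8 arrays had like median intensities, from 35.1 to 37.7. Over the 22548 probe sets the fed difference had a median of 0.0020 and an SD of 0.237, and 1% of probe sets lay below -0.64 and 1% above 0.64. The 41 control probe sets that were at 50 or brighter on every array differed by -0.52 to 0.28 between the 2 fed arrays, with a median of -0.11. The fasting arrays of the same strains, which share no array with the fed pair, are set beside it throughout. The fed drsh-1 and fed daf-16 arrays are shown only as further levels, since their comparisons share the fed wild-type array.

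The targeted gene and its partners differed little. The ain-1 gene had 3 probe sets, and their intensities in fed wild type were 132, 171 and 63.8, against 99.6, 123 and 56.1 in fed ain-1. All 3 were lower in the mutant, by log2 differences of -0.36, -0.43 and -0.15, but in the fasting pair they stood at -0.01, -0.05 and -0.04. The sources used here do not place these probes relative to the lesion of tm3681, and the values therefore do not check the genotype. The 2 probe sets of ain-2 stood at 737 and 242 in wild type against 740 and 261 in ain-1.

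None of the microRNA pathway genes listed reached 2-fold. Of 12 genes for microRNA processing and Argonautes, 1 was at least 1.25-fold higher and 0 were lower, against 6.56% and 3.84% of all 17118 genes. That gene was drsh-1, at 183 in fed wild type and 258 in fed ain-1 (log2 difference 0.46, and 0.25 in fasting). The Argonautes alg-1, from 96.4 to 92.7, and alg-2, from 350 to 328, differed by -0.05 and -0.09. The second probe set of alg-2 gave -0.34, and the 3 of alg-1 ranged from -0.05 to 0.10. Of 24 measured genes of the silencing complex, deadenylation and decapping, 1 was at least 1.25-fold higher and 3 lower. The higher one was pab-2, a poly(A)-binding protein, at 1130 and 1615 (0.51, and 0.33 in fasting), although its 4 probe sets ranged from -0.04 to 0.51. The lower ones were ain-1 itself, the PAN deadenylase subunit panl-2 (-0.34) and vig-1 (-0.34, with -0.09 on its second probe set).

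Messages known from genetics as microRNA targets were near their wild-type level in the fed pair. Of 17 measured targets, 12 lay above 0, with a median log2 difference of 0.10 against 0.003 over all genes, and 0.12 in the fasting pair. The fed median kept its sign but lay as low as 0.01 where each gene's probe sets were averaged. The 13 targets with a mean intensity of at least 50 had a fed median of 0.15, and 10 lay above 0. All genes of that brightness had a median of 0.05, with 59.4% above 0. In fasting 4 of these 13 were at least 1.25-fold higher and 0 lower, against 14.2% and 10.1%. The largest fed differences were those of let-60, a let-7 target that encodes the worm Ras, which went from 504 in wild type to 670 in ain-1 (0.40), and of hbl-1, the heterochronic zinc-finger factor, at 89.5 and 116 (0.32). In the fasting pair they were 0.21 and 0.53. The second probe set of hbl-1 went the other way in the fed pair, at -0.21, and that of let-60 gave 0.21. The let-7 target lin-41 stood at 442 and 475 (0.10, with -0.20 on its second probe set), and lin-14 was dim on both arrays, at 10.7 and 11.3. For lin-28 the values were 324 and 334 (0.04), but its 3 probe sets ranged from 0.04 to 0.37. The cell-death gene egl-1, a target of mir-35 family microRNAs, stood at 45.4 and 44.2 in the fed pair but at 66.3 and 157 in the fasting pair (-0.03 and 1.07). In fed drsh-1 animals hbl-1 stood at 446 and egl-1 at 323.

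Among all probe sets, 88 were at least 2-fold higher in fed ain-1 (0.39%) and 69 at least 2-fold lower (0.306%). Counted as genes, these were 66 higher (0.386%) and 48 lower (0.28%) of 17118. The genes higher in ain-1 included 20 major sperm protein genes and 9 epidermal antimicrobial peptide genes. The lower ones included 3 cuticle collagens and 3 muscle genes. Of the 66 higher genes, 61 lay above 0 in the fasting pair and 17 were at least 2-fold higher there. Their median was 1.45 fed and 0.75 fasting. In the fasting pair 56.6% of the 7808 genes with a mean intensity of at least 50 lay above 0. The 20 major sperm protein genes are near-identical copies that repeat 1 signal, so the 66 are not separate observations. Of the 48 lower genes, 46 lay below 0 in the fasting pair and 19 were at least 2-fold lower, with medians of -1.38 and -0.79. Of the higher genes 2 had several probe sets, and all of these were 2-fold higher, whereas of 11 lower genes with several, 5 had a probe set under 2-fold and 1 of these a probe set of the opposite sign. No gene was 2-fold higher in one pair and 2-fold lower in the other. Over all genes the fasting pair had 56 genes 2-fold higher (0.327%) and 74 lower (0.432%). Across the 22548 probe sets the fed and fasting differences had a Pearson correlation of 0.56 and a Spearman correlation of 0.44. These correlations describe the probe sets, many of which move together, and both pairs compare animals of the same 2 strains.

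**Figure D1:**
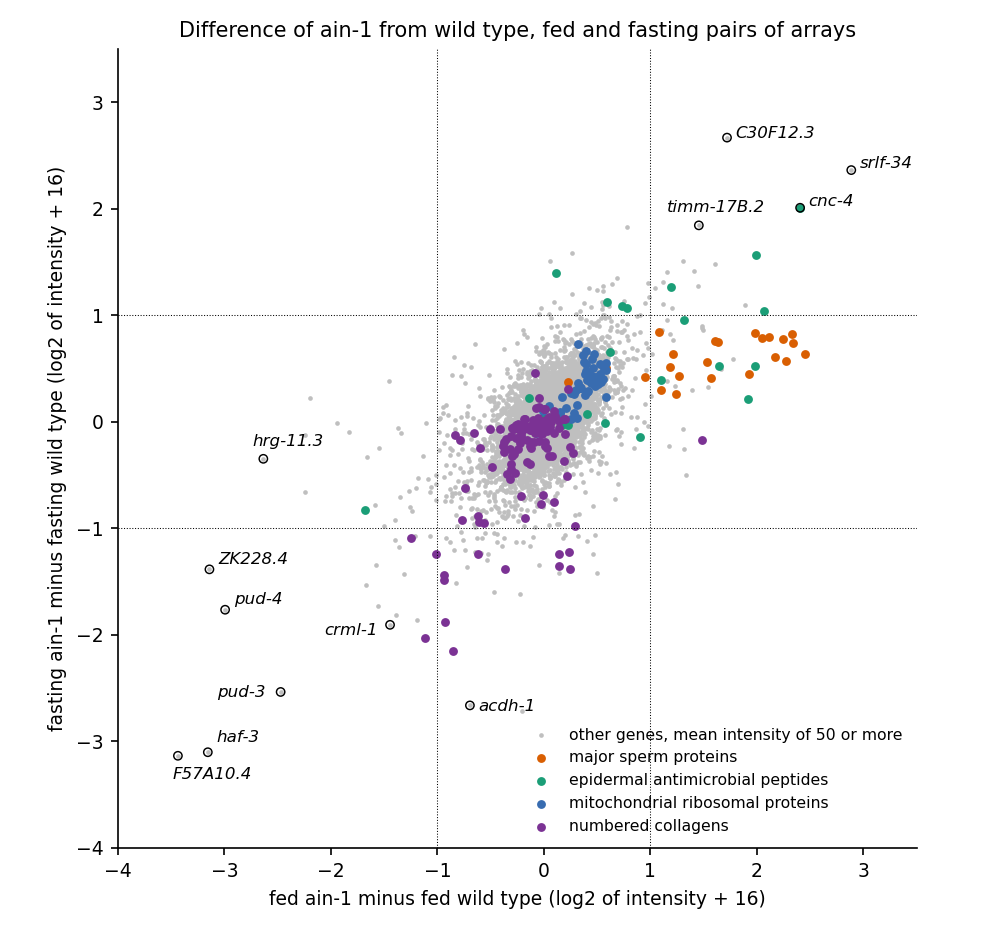
Each point is a gene, with its fed difference on the x axis and its fasting difference on the y axis (ain-1 minus wild type, log2 of intensity plus 16). Grey points are genes with a mean intensity of 50 or more over the 8 arrays, coloured points are members of 4 gene groups at any intensity, and dotted lines mark 2-fold. Genes such as F57A10.4, haf-3, cnc-4 and srlf-34 lie near the diagonal, while the major sperm proteins lie further out in the fed pair than in the fasting pair.

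Both fed arrays shaped the list of 2-fold genes. Of the 66 higher genes, ain-1 was the highest of the 4 fed arrays in 51 and wild type was the lowest in 29. Of the 48 lower genes, ain-1 was the lowest of the 4 fed arrays in 15, whereas wild type was the highest in 34. The 66 include the 20 major sperm protein genes, which repeat 1 signal. The 2-fold genes were chosen on the fed ain-1 and fed wild-type arrays, so the counts describe them and test nothing. A clear case is clec-174, a C-type lectin gene, at 381 in fed wild type and 70.5 in fed ain-1 (log2 difference -2.20). The other 6 arrays lay between 65.1 and 88.3, so that fed wild type alone stood apart.

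The lowest genes in ain-1 were near background on both of its arrays, not on the fed one alone. F57A10.4 stood at 316 in fed wild type and 294 in fasting wild type, at 156 and 133 in drsh-1 and at 391 and 231 in daf-16, but at 14.7 in fed and 19.2 in fasting ain-1. The half-molecule ABC transporter gene haf-3 stood at 298 and 282 on the wild-type arrays, at 400 and 455 on those of drsh-1 and at 392 and 290 on those of daf-16, against 19.3 and 18.7 in ain-1. Both ain-1 arrays were thus below every other array for both genes, near 15.8, the mean intensity under which the dimmest 30% of probe sets lie. The log2 differences were -3.44 fed and -3.14 fasting for F57A10.4, and -3.16 and -3.10 for haf-3. In the gene order of the RefSeq annotation (assembly WBcel235) they lie on 1 chromosome with a single gene between them, F57A10.2, which was dim in fed wild type (18.8) and in fed ain-1 (15.3). The gene on the other side of F57A10.4, nhr-60, was also dim, at 16.5 and 15.2.

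Another gene at a low level on both ain-1 arrays was ZK228.4, at 226 in fed wild type and 68.4 in fasting wild type against 11.4 and 16.3 in ain-1. It stood at 120 and 89.4 in drsh-1 and at 174 and 75.6 in daf-16. Its neighbour ZK228.3 stood at 172 in fed wild type and 23.7 in fed ain-1 (log2 difference -2.25), and at 48.3 and 24.6 in fasting. For ZK228.4 the differences were -3.14 fed and -1.38 fasting, the fasting one being measured from a lower wild-type level.

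The CARMIL homologue crml-1, which regulates actin and is known from axon guidance, was also low on both ain-1 arrays only. It stood at 1030 and 1110 in fed and fasting wild type, 1178 and 1096 in drsh-1 and 1000 and 1023 in daf-16, but at 368 and 284 in ain-1. The 6 arrays of the other strains lay close together and both ain-1 arrays were far below them. Its 2 probe sets gave fed differences of -1.45 and -1.60.

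A different pattern held for pud-3 and pud-4, neighbouring genes named for proteins that are more abundant in daf-2 mutants. In the fed state pud-4 stood at 442 in wild type, 41.5 in ain-1, 11.7 in drsh-1 and 30.9 in daf-16. In fasting it stood at 581, 160, 14.7 and 180 in the same order. Likewise pud-3 stood at 194 in fed wild type against 21.9, 19.7 and 21.7 in fed ain-1, drsh-1 and daf-16. Here wild type was the high strain and all 3 mutants were low, and the ain-1 differences were -2.99 fed and -1.76 fasting for pud-4 and -2.47 and -2.54 for pud-3.

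Several genes were lower in fed ain-1 but had little signal to lose in fasting. The hrg-11.3 gene, of a family named after haem-responsive genes, stood at 2004 in fed wild type, 1845 in fed daf-16, 403 in fed drsh-1 and 309 in fed ain-1. In fasting it stood between 48.7 and 72.4 in all 4 strains. Its relatives hrg-11.4 and hrg-11.2 had fed differences of -1.10 and -0.71 against -2.64 for hrg-11.3. The genes K08D8.5 (286 in wild type and 47.7 in ain-1), C05D12.3 (208 and 42.3) and oac-32, an O-acyltransferase homologue (310 and 75.8), were likewise low on every fasting array, all 3 below 19. They differed from hrg-11.3 in that fed daf-16 was far below fed wild type too, at 49.4 for K08D8.5 and 98.6 for C05D12.3. Fed drsh-1 was lower than fed ain-1 for all 3, at 20.6, 21.6 and 19.2, and for oac-32 fed daf-16 was lower as well.

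Some secreted and defence genes of the intestine were also among those lower in fed ain-1. The CUB-domain gene dod-24 stood at 546 in wild type and 162 in ain-1 (log2 difference -1.66), irg-5, an infection response gene, at 272 and 127 (-1.01), the saposin-like spp-8 at 626 and 211 (-1.50) and the cathepsin-B-like protease cpr-5 at 295 and 102 (-1.40). Fed drsh-1 was below fed ain-1 for dod-24 (26.2), irg-5 (44.9) and spp-8 (166), but not for cpr-5 (208). Fed daf-16 was below fed ain-1 for irg-5 only, at 104. The saposin-like caenopore (spp) genes, spp-8 among them, gave no common direction. The 18 measured held 4 at least 1.25-fold higher and 2 lower, against 6.56% and 3.84% of all genes. Of the 18, 11 lay above 0, with a median of 0.05. The 2 lower were spp-8 and spp-4, which stood at 387 and 187 (-0.99), with fed drsh-1 at 44.0. The other way went spp-12, at 54.9 and 123 (0.97). Of 30 measured genes of the p38 pathway and its intestinal effectors, 0 were 2-fold higher and 2 were lower, with a median of -0.09. At 1.25-fold, 12 were lower and 4 higher, against 3.84% and 6.56% of all genes, and 9 lay above 0. In the fasting pair the median was 0.10, with 5 lower and 9 higher. The 22 with a mean intensity of at least 50 held 7 lower and 4 higher in the fed pair (median -0.04). All genes of that brightness gave 6.67% and 12.9%. In fasting these 22 held 4 lower and 9 higher, against 10.1% and 14.2%. Within the list irg-8 stood at 822 and 418 (-0.95), while sysm-1, an effector of the same pathway, stood at 2101 and 2862 (0.44). The 220 measured C-type lectin genes held 2 at least 2-fold higher (clec-5 and clec-266) and 2 lower (clec-174 and clec-186). Over all genes these shares were 0.386% and 0.28%. The median of the 220 was -0.03, but most were dim. The 37 with a mean intensity of at least 50 held 15 at least 1.25-fold lower and 3 higher (median -0.25), against 6.67% and 12.9%. In fasting these 37 held 11 lower and 3 higher (median -0.13), against 10.1% and 14.2%. In fed animals clec-5 stood at 349 in wild type and 903 in ain-1, but in fasting at 280 and 194 (1.33 and -0.50).

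**Figure D2:**
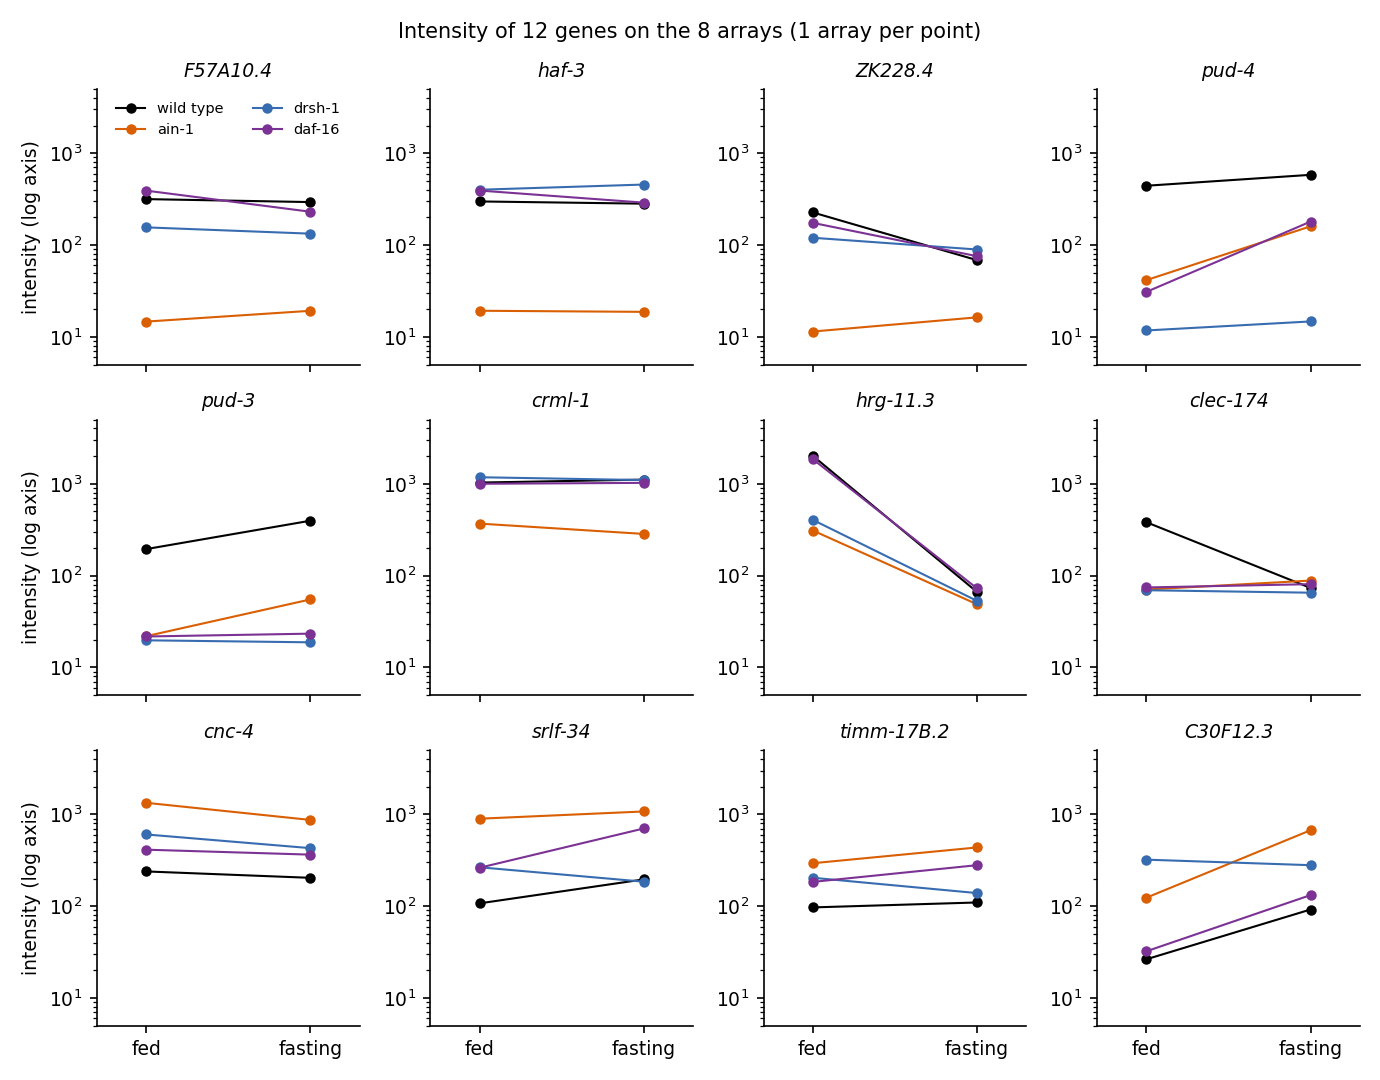
The intensity of 12 genes (log axis) is shown for fed and fasting animals, with 1 point per array and 1 line per strain. For F57A10.4, haf-3 and crml-1 both ain-1 arrays lie below the other 6, for clec-174 the fed wild-type array alone is high, and for cnc-4 both ain-1 arrays lie above all others.

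The gene with the largest difference upwards was srlf-34, at 107 in fed wild type and 896 in fed ain-1 (2.89). It stood at 196 and 1075 in the fasting pair (2.37), and the fasting daf-16 array, at 701, came closest to ain-1. C30F12.3 stood at 26.4 and 124 in the fed pair and at 92.0 and 671 in fasting (1.72 and 2.67), but fed drsh-1, at 321, was higher than fed ain-1. Also higher in both pairs was T16H12.2, at 28.8 and 103 fed (1.41) and with 1.42 in fasting, but fed daf-16 stood at 111. F42A9.6 stood at 269 and 689 (1.31), with 1.51 in fasting, and fed daf-16 came close at 639. For Y43C5A.3, at 49.1 and 225 (1.89), with 1.10 in fasting, fed drsh-1 was higher than fed ain-1, at 385.

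Antimicrobial peptide genes of the epidermis were higher in fed ain-1. These small secreted peptides, the caenacins (cnc genes) and the nlp-29 group, are made in the epidermis and are known to be induced by fungal infection and by wounding. The list also held 8 measured fungus-induced-peptide-related (fipr) genes. Of its 26 measured members, 9 were at least 2-fold higher and 1 lower, against 0.386% and 0.28% of all genes. The median log2 difference of the 26 was 0.61 fed and 0.30 fasting, and that of the 8 fipr genes was 0.09 and -0.0003. In whole animals, more cells of a type and more RNA per cell cannot be told apart.

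The caenacin cnc-4 stood at 239 in fed and 204 in fasting wild type, 604 and 429 in drsh-1 and 412 and 364 in daf-16, against 1335 and 869 in ain-1. Both ain-1 arrays were above every other array, with differences of 2.41 fed and 2.01 fasting. Of the 8 measured caenacins 4 were 2-fold higher, and the median was 1.36 fed and 1.07 fasting. The other 3 were cnc-6 (20.2 in wild type and 136 in ain-1), cnc-2 (36.6 and 193) and cnc-7 (17.1 and 115), which are dim in fed wild type. In the fasting pair they differed by 1.04, 1.57 and 0.52.

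Among 10 measured nlp genes of this class 4 were 2-fold higher, with a median of 0.70 fed and 0.46 fasting. The 4 are neighbours on the chromosome in the RefSeq order. nlp-28 stood at 177 and 588 (1.65), nlp-29, the best known reporter of the epidermal response, at 222 and 576 (1.32), nlp-31 at 273 and 647 (1.20) and nlp-30 at 36.0 and 95.4 (1.10). Their probe sets are of the type that can share sequence with related genes, so their signals may be mixed. In fed drsh-1 and fed daf-16, nlp-29 stood at 242 and 300 and nlp-28 at 359 and 203. On the same arrays nlp-31 stood at 434 and 307 and nlp-30 at 53.2 and 44.3. The 15 epidermal peptide genes with a mean intensity of at least 50 were also higher in fed drsh-1. Their median difference from fed wild type was 1.10 in ain-1, 0.57 in drsh-1 and 0.18 in daf-16. The 2 fungus-induced-peptide-related genes past 2-fold went opposite ways, fipr-26 from 45.1 to 214 (1.91, but 0.22 in fasting) and fipr-2 from 265 to 71.6 (-1.68, and -0.83 in fasting). The antibacterial factor abf-2, which is made in the pharynx, stood at 101 and 339 fed and at 232 and 677 fasting (1.60 and 1.49), although fed drsh-1, at 341, matched fed ain-1.

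Major sperm protein genes made up much of the list of higher genes. Major sperm proteins form the filaments on which nematode sperm crawl, and they also signal to the oocyte. Of 23 measured msp genes, 20 were at least 2-fold higher in fed ain-1 and 0 lower, with a median log2 difference of 1.60 fed and 0.61 fasting. Over the 21 with a mean intensity of at least 50, the median intensity was 95.8 in fed wild type, 88.0 in fed drsh-1, 78.9 in fed daf-16 and 312 in fed ain-1. In fasting it was 72.1, 85.9, 62.5 and 132 in the same order. Both ain-1 arrays thus had the highest median of their food group, and the fed array stood well above the fasting one.

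Examples are msp-78, at 154 in fed wild type and 848 in fed ain-1 (2.34), msp-65, at 222 and 1053 (2.17), and msp-38, at 34.9 and 262 (2.45). In fed drsh-1 and fed daf-16, msp-78 stood at 181 and 138. The smallest difference was that of msp-32, at 57.9 and 70.4 (0.23). The msp genes are near-identical copies, and 23 of their 24 probe sets with 1 symbol are of the shared type, so the members repeat 1 signal and their separate levels are uncertain. Another 8 probe sets that list several msp genes were all 2-fold higher, with a median of 2.22.

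Most other sperm genes did not share a difference of this size. Of 49 measured, 1 was 2-fold higher, msd-2, which belongs to a family with a major sperm protein domain, at 36.1 and 136 (1.54), and 0 were lower. Their median was 0.04 fed and 0.00 fasting. At 1.25-fold, 8 of the 49 were higher and 1 lower, against 6.56% and 3.84% of all genes, and 34 lay above 0. Only 10 of them had a mean intensity of at least 50, and of those 1 was at least 1.25-fold higher and 1 lower. Just under the threshold were nspd-2 (30.6 and 76.4, log2 difference 0.99), nspd-4 (0.94) and nspd-1 (0.86), of a family of sperm-enriched small proteins. The sperm phosphatase gsp-3 stood at 23.5 and 39.9 (0.50), while spe-15, a myosin that sorts sperm organelles, stood at 107 and 79.9 (-0.36) and the spermatogenesis factor spe-44 at 157 and 124 (-0.31). Germ line genes (39 measured, median 0.00) and oocyte and eggshell genes (28 measured, median -0.08) had no member past 2-fold. The part of a difference in sperm content in the msp values was not tested.

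**Figure D3:**
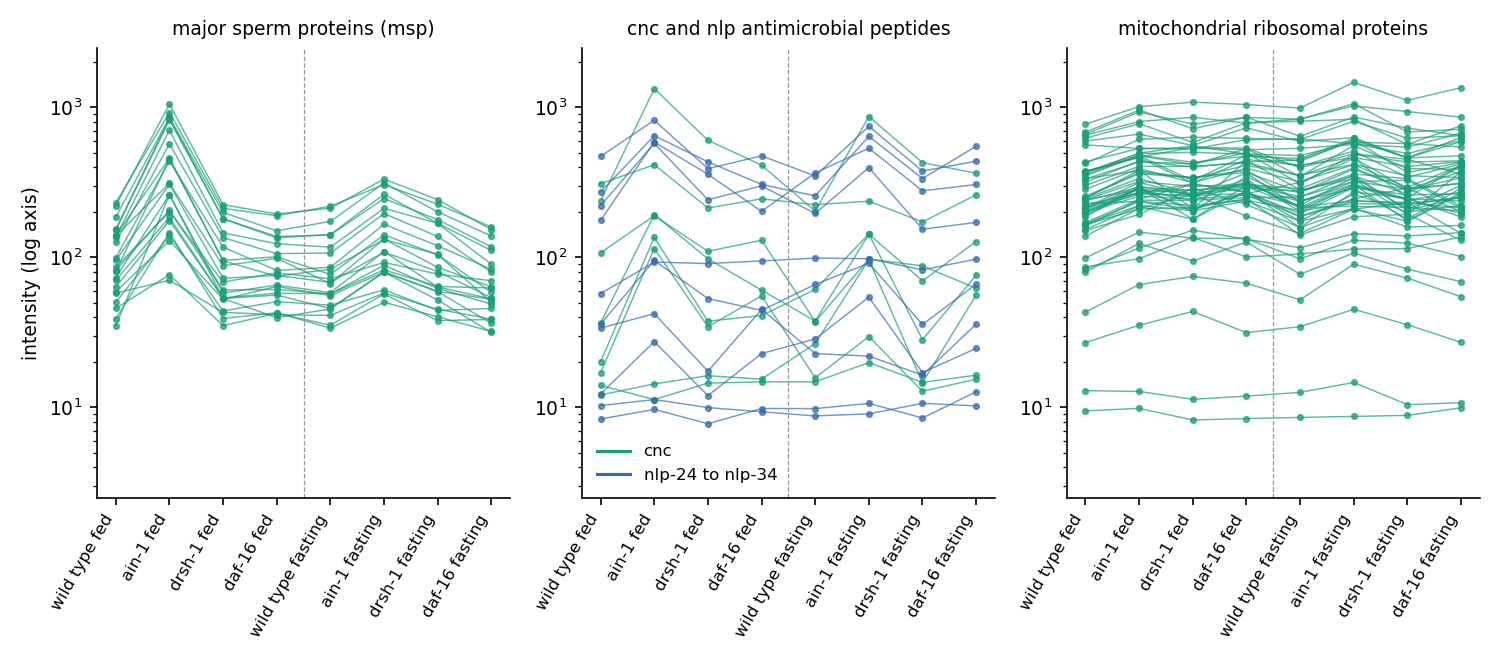
Each line is a gene and each point its intensity (log axis) on 1 of the 8 arrays, fed arrays left of the dashed line and fasting arrays right of it. The major sperm protein genes peak on the fed ain-1 array, several cnc and nlp genes are high on both ain-1 arrays, and the mitochondrial ribosomal proteins are a little higher in fed ain-1 than in fed wild type.

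A small but broad difference was seen in the mitochondrial translation machinery. Mitochondrial ribosomal proteins, encoded in the nucleus, build the ribosomes that make the core subunits of the respiratory chain. Of 56 measured genes 0 were 2-fold different, but their median log2 difference was 0.39 fed and 0.36 fasting. Of the 53 with a mean intensity of at least 50, 40 were at least 1.25-fold higher and 0 lower, against 12.9% and 6.67% of the 7808 genes of that brightness, and 52 lay above 0, against 59.4%. In the fasting pair 34 were at least 1.25-fold higher and 0 lower, against 14.2% and 10.1%, and 52 again lay above 0, against 56.6%.

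The largest fed differences were those of mrps-23, at 249 and 381 (0.59), mrpl-12, at 187 and 288 (0.58), and mrpl-23, at 191 and 293 (0.58). The lowest was mrpl-40, at 563 and 533 (-0.08). The fed ain-1 array was not the only one above fed wild type, since the median intensity of the 53 genes was 242 in fed wild type, 290 in fed drsh-1, 316 in fed ain-1 and 330 in fed daf-16. The median difference of these genes from fed wild type was accordingly 0.29 in drsh-1, 0.40 in ain-1 and 0.45 in daf-16, all 3 set against the same wild-type array.

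Genes of protein import into mitochondria had a median of 0.29 fed and 0.26 fasting over 14 members, 12 of them above 0. The inner-membrane translocase gene timm-17B.2 was the one past 2-fold. It stood at 97.0 in fed and 110 in fasting wild type, 204 and 139 in drsh-1 and 184 and 280 in daf-16, against 294 and 436 in ain-1 (1.45 fed and 1.85 fasting). Each ain-1 array was the highest of its food group. The related timm-17B.1 stood at 496 and 607 fed (0.29), the outer-membrane receptor tomm-22 at 471 and 699 (0.55) and the small chaperone tin-13 at 482 and 723 (0.57).

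Other groups of the translation apparatus differed less. Translation factors had a median of 0.17 fed and 0.16 fasting (37 genes), aminoacyl-tRNA synthetases 0.17 and 0.19 (32 genes) and ribosome biogenesis genes 0.16 and 0.21 (31 genes). The most different translation factor was ife-5, a cap-binding eIF4E, at 67.6 in fed wild type and 137 in fed ain-1 (0.87), with 66.5 and 149 in fasting. Cytosolic ribosomal proteins had a median of 0.04 in both pairs (73 genes). The respiratory chain and ATP synthase, whose mitochondrially made subunits need the mitochondrial ribosome, had a median of -0.04 fed and -0.10 fasting (46 genes). No member of these lists was 2-fold different in the fed pair.

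Muscle genes were lower in fed ain-1. Of 33 measured genes of the contractile apparatus and its attachments, 3 were at least 2-fold lower and 0 higher, with a median log2 difference of -0.33 fed and -0.27 fasting. Of the 31 with a mean intensity of at least 50, 18 were at least 1.25-fold lower and 0 higher, against 6.67% and 12.9% of all genes of that brightness. The pharyngeal myosin myo-1 stood at 212 and 73.1 (-1.36), troponin T tnt-2 at 549 and 220 (-1.26) and troponin I tni-3 at 267 and 104 (-1.24). In fasting the same genes differed by -1.17, -0.80 and -0.83. A second probe set of myo-1 gave -0.34 in the fed pair and one of tni-3 gave -0.55, so only tnt-2, with a single probe set, was 2-fold lower on all its probe sets.

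Several body wall genes were also lower, paramyosin unc-15 at 1625 and 848 (-0.93), troponin I unc-27 at 1899 and 1172 (-0.69) and the major myosin heavy chain unc-54 at 754 and 433 (-0.78). The body wall myosin myo-3 stood at 76.6 and 90.0 (0.20), and integrin pat-3 at 778 and 858 (0.14). The median intensity of the 31 brighter muscle genes was 447 in fed wild type, 310 in fed ain-1, 348 in fed drsh-1 and 262 in fed daf-16, so fed wild type was the highest fed array. In the fasting state it was 249 in wild type, 238 in ain-1, 267 in drsh-1 and 124 in daf-16.

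The pharyngeal gland genes of the phat family, named for their likeness to ShK toxins, were lower as well. Of 8 measured, 1 was 2-fold lower and 0 lay above 0, with a median of -0.58 fed and -0.13 fasting. In fed animals phat-7 stood at 814 in the wild type against 300 in ain-1 (-1.39), and in fasting at 245 and 58.4 (-1.81). The phat-8 gene stood at 626 and 332 (-0.88). Fed daf-16 was lower still for both, at 171 and 167.

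Neuronal genes had a median of -0.08 (35 genes, 0 past 2-fold), and the largest difference was that of egl-3, the proprotein convertase of neuropeptides, at 358 and 193 (-0.84, and -0.61 in fasting). Intestinal genes had a median of -0.24 fed but -0.02 fasting (22 genes, 0 past 2-fold). Among them the apical V-ATPase subunit vha-6 stood at 632 and 410 (-0.60) and the microvillar actin act-5 at 601 and 414 (-0.52).

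**Figure D4:**
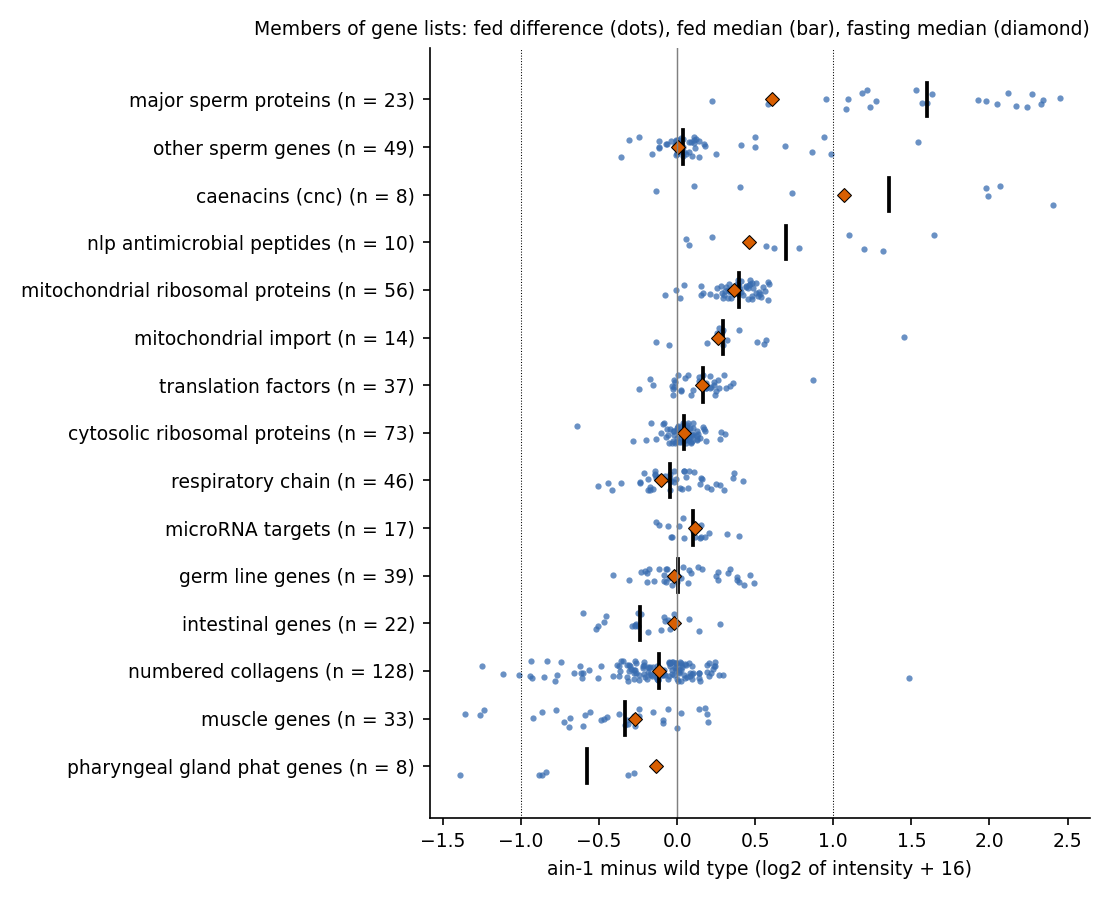
Each dot is a gene of the list named on the y axis, placed at its fed difference on the x axis (ain-1 minus wild type, log2 of intensity plus 16), with the fed median as a bar and the fasting median as a diamond. Dotted lines mark 2-fold. Major sperm proteins and caenacins lie furthest to the right, mitochondrial ribosomal proteins form a narrow group at a median of 0.39, and muscle and phat genes lie to the left.

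Many of the brighter cuticle collagens were lower in ain-1 than in wild type, in larger number in the fasting pair than in the fed pair. Of 128 measured numbered collagens 3 were 2-fold lower and 1 higher in the fed pair, with a median of -0.12 in both pairs. Most were dim on these arrays. Of the 47 with a mean intensity of at least 50, 22 were at least 1.25-fold lower and 1 higher in the fed pair (median -0.28), against 6.67% and 12.9% of all genes of that brightness. In fasting 32 were lower and 0 higher (median -0.62), against 10.1% and 14.2%. The median intensity of these 47 genes was 791 in fed wild type, 642 in fed ain-1, 425 in fed daf-16 and 205 in fed drsh-1, so fed drsh-1 and not fed ain-1 was the lowest. Their median difference from fed wild type was -1.43 in drsh-1 and -0.23 in daf-16. The adult collagen col-119 stood at 14003 in fed wild type and 6457 in fed ain-1 (-1.11), and at 4181 and 1015 in fasting (-2.02). The adult-specific col-19 stood at 1244 and 642 fed (-0.94) and at 465 and 162 fasting (-1.43), col-20 at 337 and 133 fed (-1.25) and col-8 at 2908 and 1433 fed (-1.01).

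The exception was col-183, at 77.1 in fed wild type and 244 in fed ain-1 (1.48), and at 21.7 and 17.5 in fasting. It was high on the fed ain-1 array alone, as fed drsh-1 stood at 18.6 and fed daf-16 at 19.5. Some abundant collagens differed in the fasting pair only, such as col-181, at 4017 and 4753 fed (0.24) but 2177 and 824 fasting (-1.38). Among collagens that set body shape, dpy-14 stood at 41.7 and 115 (1.18, and 0.82 in fasting), while dpy-13 stood at 2079 and 1413 (-0.55). The apical matrix gene noah-1, which acts in molting, stood at 89.8 and 178 fed (0.87) and at 206 and 339 fasting (0.68).

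Genes known to be raised by DAF-16, outputs of the insulin pathway, gave no common direction in the fed pair but leaned lower in fasting. Of 20 measured, 1 was 2-fold lower and 0 higher in the fed pair, with a median of -0.06 fed and -0.35 fasting. At 1.25-fold, 3 were lower and 3 higher in the fed pair, against 3.84% and 6.56% of all genes. The 16 with a mean intensity of at least 50 held 9 lower and 3 higher in fasting. All genes of that brightness gave 10.1% and 14.2%. The gene 2-fold lower in the fed pair, dod-6, stood at 1008 in fed wild type and 305 in fed ain-1 (-1.67), and at 1937 and 658 in fasting (-1.53). The metallothionein mtl-1 stood at 320 and 198 (-0.66), the lysozyme lys-8 at 3231 and 2097 (-0.62), and the glyoxylate enzyme icl-1 at 1130 and 1659 (0.55). A list drawn up as genes lowered by DAF-16 is given no count, because it held pud-3 and pud-4, which were lower in daf-16 than in wild type. Its members past 2-fold in the fed pair, pud-3, pud-4 and dod-24, were all lower and are given above.

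Genes of the fasting response gave no common direction in the fed pair, with 13 of 27 above 0 and a median of -0.03 fed and -0.18 fasting. Of these 27 fasting-induced and NHR-49 target genes, 1 was 2-fold lower, the alcohol dehydrogenase adh-1, at 191 in fed wild type and 54.5 in fed ain-1 (-1.55), and 0 were higher. In fasting it stood at 3848 and 3241 (-0.25). The acyl-CoA synthetase acs-2 stood at 53.9 and 83.6 (0.51) and the carnitine palmitoyltransferase cpt-4 at 112 and 177 (0.60). The acyl-CoA dehydrogenase acdh-1 stood at 1947 and 1196 fed (-0.70) and at 367 and 44.5 fasting (-2.66). The inducible small heat shock genes hsp-16.2 (26.1 and 45.7, log2 difference 0.55) and hsp-16.41 (11.4 and 21.1, log2 difference 0.44) were dim in fed animals, and in fasting hsp-16.41 differed by 1.08. Of 254 nuclear hormone receptor genes and of 310 F-box genes, 0 passed 2-fold in either direction, against 0.386% higher and 0.28% lower of all genes. Only 60 and 53 of them had a mean intensity of at least 50. At 1.25-fold the 60 held 3 higher and 4 lower fed, and 13 and 3 fasting. The 53 held 9 higher and 1 lower fed, and 24 and 4 fasting. All genes of that brightness gave 12.9% and 6.67% fed, and 14.2% and 10.1% fasting.

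The only test the design allows is that of ain-1 against wild type over both foods, in an additive limma fit of strain and food on all 8 arrays. It tests the mean of the fed and fasting differences and not the fed difference, and it rests on 3 residual degrees of freedom. Of 15783 probe sets tested, limma called 1 higher in ain-1 (0.00634%) and 7 lower (0.0444%) at a Benjamini-Hochberg adjusted p under 0.05, while 923 had an unadjusted p under 0.05. The calls were F57A10.4 (log2 coefficient -3.29 ± 0.24, SE, limma adjusted p = 0.0244), haf-3 (-3.13 ± 0.19, limma adjusted p = 0.0176), crml-1 by both probe sets (-1.68 and -1.70, limma adjusted p = 0.0450 and 0.0354) and cnc-4 (2.21 ± 0.17, limma adjusted p = 0.0244). The other 3 were lower and belonged to probe sets listed with several genes, with coefficients of -0.88, -1.91 and -1.57. No member of any list other than cnc-4 was called. By contrast srlf-34, with a larger coefficient of 2.63 but an SE of 0.40, had a limma adjusted p of 0.189. The limma adjusted p ranged over the alternatives from 0.000244 to 0.0478 for F57A10.4, from 6.35e-05 to 0.0396 for haf-3 and from 0.000406 to 0.0478 for cnc-4. For the crml-1 probe sets it ranged from 0.00132 to 0.101 and from 0.000406 to 0.0575. Without the drsh-1 pair of arrays neither crml-1 probe set was called (limma adjusted p = 0.0722 and 0.0575), and the first was not called without the daf-16 pair (limma adjusted p = 0.101) or without the mean-variance trend (limma adjusted p = 0.0645).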

How the data were processed

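The deposited values are probe set intensity on a linear scale, 1 column per array. Per the labels' protocols, RNA extracted with Trizol was amplified by 3-prime in vitro transcription with a biotin label. The sources used here do not give how the authors summarised and normalized the arrays, and the values were used as deposited. Depth does not apply to arrays, and 1 array per group limits the precision.

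Values were taken as log2(intensity + 16) with Python 3.11.15 and pandas 2.3.3, without the 77 probe sets for controls. Of 22548 probe sets, 20766 had 1 symbol in the platform annotation, 887 several and 895 none listed. Of the symbols 20701 were matched to RefSeq (WBcel235) by Entrez number and 65 kept. Each gene took its probe set with the highest mean over the arrays. No sequence was used.

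The pair has no test. The additive fit used limma 3.58.1 (R 4.3.3) with a mean-variance trend, without the dimmest 30% of probe sets. It was tested on simulated data.

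Genes were ranked where the brighter fed array reached 50. Named were the members of the 3 microRNA lists, the 20 largest differences each way, the 8 each way largest in both pairs, 6 each way by departure from fasting, the called genes and up to 5 members per list. The lists were chosen with earlier results of these data known. Those of single families (major and other sperm proteins, caenacins, nlp, fipr, abf, hrg-11, pud and phat genes, mitochondrial import and ribosome biogenesis) and their named members were chosen after their values were seen, as were the neighbours, unc-54, unc-27, pat-3, myo-3, T16H12.2, sysm-1, acs-2, col-19, col-181, hsp-16.2 and hsp-16.41.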

Additional observations from a re-analysis of the deposited data

How the results depend on the processing

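The number of 2-fold probe sets moved with the scale more than with the normalization. With a pseudocount of 1 there were 124 higher and 103 lower, with 64 there were 51 and 48, and past 3-fold there were 37 and 21. Quantile normalization gave 90 and 75, median centring 89 and 69, and leaving out the dimmest 50% gave 83 and 68. Of the 67 named genes past 2-fold, 56 stayed there with a pseudocount of 64 and at least 65 under each other alternative that kept them, and none turned its sign. The medians ranged from 1.24 to 1.82 for major sperm proteins, 0.85 to 1.99 for caenacins, 0.33 to 0.41 for mitochondrial ribosomal proteins and -0.41 to -0.28 for muscle genes, and from -0.23 to -0.05 for numbered collagens. The correlation of the fed and fasting differences lay between 0.52 and 0.59 (Pearson), and the Spearman value moved from 0.44 to 0.55 without the dimmest 50%. The limma calls were less stable. In place of 1 higher and 7 lower there were 1 and 3 without the drsh-1 pair, 2 and 3 without the daf-16 pair, 1 and 4 without the trend, and 262 and 231 with array weights. Of the 8 called probe sets, 4 were called without the drsh-1 pair and 4 without the daf-16 pair, 3 of them under both, and the cause was not tested. Each group has 1 array, so no paired analysis of replicates was possible beyond the additive fit, in which food is the block.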
